A study of Mus musculus with 3 samples.

Results

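Nuclear genes of the mitochondrial respiratory chain and ATP synthase were followed in sorted mouse CD8+ T cells with and without the type II TGF-β receptor. Members were genes whose symbol belongs to the Nduf, Sdh, Uqcr, Cox or Atp5 subunit families, read by probe sets that the platform annotation gives exactly 1 symbol. This rule took 80 of the 18193 genes on the array: 34 of complex I, 4 of complex II, 8 of complex III, 17 of complex IV and 17 of complex V. Complexes were assigned by symbol, so Ndufa4 counts under complex I although its protein is now placed in complex IV. The brightest probe set of a gene, by its mean over all 3 groups, stood for the gene. The choice used no comparison between groups.

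The study asked what makes NK1.1+ T cells that lack the receptor pathogenic, NK1.1 being a surface marker of natural killer cells. Mutant mice (KO) were Tgfbr2fl/fl x CD4-Cre, both receptor alleles floxed and deleted by a Cre driven by the Cd4 promoter, which is active in developing T cells of both the CD4 and the CD8 lineage. At 15 to 17 days of age their CD8+ cells were sorted by whether they carried NK1.1. Control cells came from Tgfbr2fl/wt x CD4-Cre littermates, which carry the same Cre and 1 floxed allele; the labels describe these control cells as NK1.1− at one point and as the total CD8+ population at another, which was not settled. There was 1 Affymetrix array for each of the 3 groups, and the sources used here do not give how many mice were pooled. No difference below therefore has a replicate check, and none has a p-value. A gene counted as measured at an intensity of 10.3 or more, the 95th percentile of 144 probe sets for receptors of smell and taste, keratin-associated proteins and crystallins, and a difference is called at 2-fold (1 on the log2 scale).

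The respiratory chain passes electrons from NADH (complex I) and succinate (complex II) through ubiquinone to complex III, and through cytochrome c to complex IV, where oxygen is reduced. Complexes I, III and IV pump protons out of the matrix, and complex V, the ATP synthase, uses their return to make ATP. Resting T cells rely largely on this route, while dividing effector T cells use glycolysis as well and still need the chain to regenerate electron acceptors. A few subunits of the complexes are encoded in mitochondrial DNA; all genes described here are nuclear.

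The arrays carried T cell transcripts. All 7 CD8 T cell markers found on the array were measured in the 3 groups, including Cd3e, Cd3g and Cd8a, with summed values of 14541 in control, 11899 in NK1.1− KO and 6838 in NK1.1+ KO cells. Monocyte, macrophage and granulocyte markers were measured for 5, 7 and 10 of 15 genes in the same order, with summed values of 281, 371 and 9680, of which Csf1r made up 30.5, 54.5 and 7666. Of 10 of these markers measured in NK1.1+ KO or control cells, 8 were at least 2-fold higher in NK1.1+ KO cells and 0 lower, against 9.90% of all genes higher. Beside Csf1r, Mpeg1 read 34.2 in control and 856 in NK1.1+ KO cells, and Lyz2 23.7 and 541. C1qb read 163 in NK1.1+ KO cells and was below the level in control. Cd14, Itgam, Elane, Ms4a7 and C1qa were below the level on every array. B cell and plasma cell markers summed to 346, 161 and 2449 over 8 genes. In NK1.1+ KO cells Jchain, an immunoglobulin joining chain made by plasma cells, gave 2282 of this sum (15.9 in control), while the B cell gene Ms4a1 read 212 in control and 108 in NK1.1+ KO cells and Cd79b 53.7 and 24.5, and 6, 4 and 3 of the 8 genes were measured. The defining B cell markers Cd79a and Pax5 were below the level on all 3 arrays. Erythroid markers summed to 102, 38.1 and 68.3 over 4, and the CD4 cell markers Cd4 and Zbtb7b to 364, 396 and 187. The brightest probe set of Tgfbr2 itself read 2634, 1271 and 1808; the sources used here do not say whether it lies in the deleted part, so it does not check the labels. RNA from fewer cells of a type and less RNA per cell cannot be told apart in such bulk samples. The ratio of 3′ to 5′ control probe sets for Actb was 6.02 in control, 12.3 in NK1.1− KO and 81.9 in NK1.1+ KO cells, and for Gapdh 17.8, 26.7 and 10.8.

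Factors named NRF1, GABPA (an ETS factor), YY1 and the estrogen-related receptors are known for binding near respiratory genes, so the promoters of the members were read for their core letters. RefSeq promoters of build GRCm38.p6 matched 66 of the 80 genes, with 71 windows reaching from 250 bases before to 50 after a start. The letters GCATGCGC, the core of the NRF1 motif, stood on either strand in 9 of these 71 windows (12.7%), against 2.71% of all 32851 windows. CCGGAAG, an ETS core, stood in 17 (23.9%, against 8.86%), AAGATGGC, a YY1 core, in 9 (12.7%, against 2.75%), and AAGGTCA, the core of the estrogen-related receptor element, in 8 (11.3%, against 4.72%). Most of the YY1 cores did not lie wholly in the 250 upstream bases, where Atp5j holds this core. The more general GC box GGGCGG (29 windows, 40.8%, against 35.7%) and CCAAT (40.8% against 37.4%) were closer to their shares over all windows. Base composition differs between promoters and was not matched, and a match is a description of letters and not a bound site. The bases upstream of the start are shown 5′ to 3′ for 4 genes named below, with the cores of these 4 factors in capitals. Each of the 4 holds a core, so they do not stand for the members at large. They are Atp5k, the only member at least 2-fold higher in NK1.1− KO cells, Ndufs3 and Sdhb, both at least 2-fold lower in NK1.1+ KO cells, and Cox6a1, under 2-fold in every comparison.
Atp5k (chr5:108434400-108434649, minus strand): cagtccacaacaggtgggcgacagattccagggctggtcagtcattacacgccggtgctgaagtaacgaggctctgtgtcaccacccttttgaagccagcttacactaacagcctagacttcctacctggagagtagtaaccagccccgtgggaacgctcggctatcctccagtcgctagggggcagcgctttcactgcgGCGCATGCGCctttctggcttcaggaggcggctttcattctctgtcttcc
Ndufs3 (chr2:90904722-90904971, minus strand): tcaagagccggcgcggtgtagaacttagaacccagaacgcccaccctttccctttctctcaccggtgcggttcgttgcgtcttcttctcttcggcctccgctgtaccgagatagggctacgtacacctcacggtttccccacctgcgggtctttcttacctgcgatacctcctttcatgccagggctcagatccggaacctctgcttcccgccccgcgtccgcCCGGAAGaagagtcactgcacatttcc
Sdhb (chr4:140961021-140961270, plus strand): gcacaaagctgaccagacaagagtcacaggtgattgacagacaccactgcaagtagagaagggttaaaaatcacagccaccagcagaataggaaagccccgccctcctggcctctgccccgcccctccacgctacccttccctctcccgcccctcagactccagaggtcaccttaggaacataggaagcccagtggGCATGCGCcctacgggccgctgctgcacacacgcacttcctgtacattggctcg
Cox6a1 (chr5:115348959-115349208, minus strand): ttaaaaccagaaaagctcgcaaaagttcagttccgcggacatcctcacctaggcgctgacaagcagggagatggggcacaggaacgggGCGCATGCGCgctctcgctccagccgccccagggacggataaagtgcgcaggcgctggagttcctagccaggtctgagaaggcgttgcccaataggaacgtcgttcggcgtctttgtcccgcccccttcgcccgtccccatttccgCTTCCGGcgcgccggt
The capitals mark an NRF1 core in Atp5k, read on both strands because the palindrome holds it in each direction, an ETS core in Ndufs3, an NRF1 core in Sdhb, and in Cox6a1 an NRF1 palindrome and an ETS core close to the start. The same upstream bases of Atp5b and Sdha, both also at least 2-fold lower in NK1.1+ KO cells, hold none of these cores. Among the 14 windows of members lower in NK1.1+ KO cells, ETS cores stood in 5, estrogen-related receptor cores in 3, NRF1 cores in 2 and YY1 cores in 2. Among the 51 windows of the other measured members they stood in 12, 4, 7 and 7. These counts are small and their difference was not tested.

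Of the 80 genes, 71 were measured, each of them on all 3 arrays, and 9 were below the level on all 3. Of these 9, 7 are isoforms of complex IV subunits that are known from other tissues: Cox4i2 (lung), Cox6a2, Cox7a1 and Cox8b (heart and skeletal muscle), and Cox6b2, Cox7b2 and Cox8c (testis). Their values lay between 3.47 and 8.43. The widely expressed partners found among the members, Cox4i1, Cox6a1, Cox6b1, Cox7a2 and Cox8a, were all measured. The members hold no Cox7b beside Cox7b2. The remaining unmeasured genes were Ndufb1 and Ndufb4, accessory subunits of complex I. Another probe set, which the annotation shares between Ndufb4 and its copies Ndufb4b and Ndufb4c, read 726 in control, 796 in NK1.1− KO and 509 in NK1.1+ KO cells, so a transcript of this family was measured although the probe set of Ndufb4 alone was not. Of the 71 measured genes, 47 read highest in NK1.1− KO cells, 18 in control cells and 6 in NK1.1+ KO cells, while 52 read lowest in NK1.1+ KO cells. The NK1.1+ KO array also read low over all measured genes. There 6059 of 10339 lay below control and 6469 of 10328 below NK1.1− KO cells. With arrays scaled to one median, 40 of the 71 members lay above control in NK1.1+ KO cells, so these counts depend on the scaling.

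**Figure D1:**
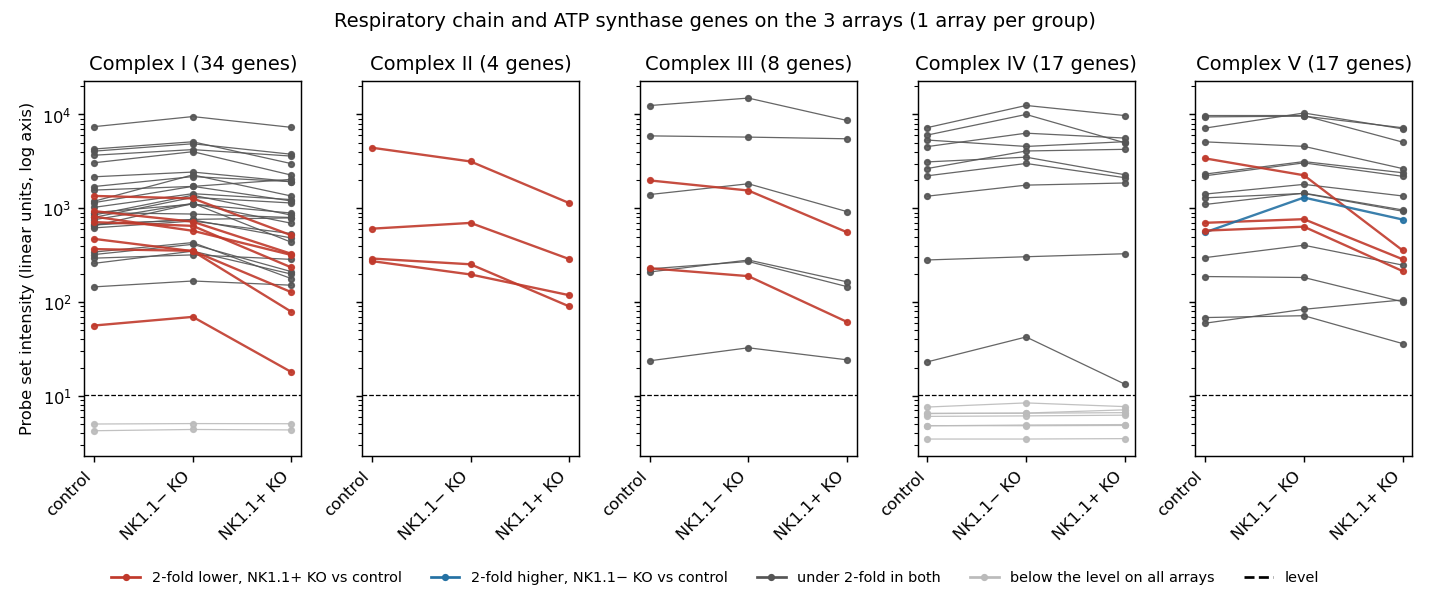
Intensity of each of the 80 genes (log axis) on the control, NK1.1− KO and NK1.1+ KO arrays, 1 panel per complex and 1 line per gene, with the level of 10.3 dashed. The 4 complex II genes all read lowest in NK1.1+ KO cells, and 7 complex IV isoforms lie under the level on all 3 arrays.

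Receptor-deficient NK1.1− cells were set against control cells to ask how these genes differ in mutant cells without NK1.1. With 1 array per group and the sort of the control cells unsettled, this comparison does not isolate loss of the receptor. Few members differed: 1 of 71 measured members was at least 2-fold higher (1.41%) and 0 were at least 2-fold lower, while 8.14% of all 9812 measured genes were higher and 5.58% lower. The members lay slightly above control as a list, with 53 above, 17 below and 1 equal within 0.005 on the log2 scale, and a median log2 difference of 0.26 against 0.01 over all genes. Their quartiles were 0.01 and 0.44. On the same arrays 20 of 23 measured proliferation genes were at least 2-fold higher, with a median of 2.02, and their part in the small shift of the respiratory genes was not tested.

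By complex, the median log2 difference between NK1.1− KO and control cells was 0.26 for complex I, -0.34 for complex II, 0.26 for complex III, 0.45 for complex IV and 0.15 for complex V. Complex IV had 9 of 10 measured genes above control and complex II 3 of 4 below it. With 1 array a group, the difference between complexes was not tested.

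In complex I, the accessory subunits of the distal membrane arm stood highest against control. Ndufb7 read 1189 in control and 2270 in NK1.1− KO cells (1.91-fold higher), and both of its probe sets gave this (0.91 and 0.93 on the log2 scale). Ndufb8 read 652 and 1123, and Ndufb9 800.1 and 1308. Of the 9 measured Ndufb genes, 8 lay above control, with a median of 0.43. Among subunits that carry the electron path, Ndufs8 read 848 in control and 1379 in NK1.1− KO cells, and Ndufv2 1150 and 1715. The other catalytic subunits did not follow them. Ndufs1, the largest subunit and a holder of iron-sulfur clusters, read 816 in control and 576 in NK1.1− KO cells, and Ndufs3, of the arm where ubiquinone is reduced, 472 and 349. Ndufv1, which binds NADH, read 1355 and 1275, and Ndufs7, which holds the last cluster before ubiquinone, 1564 and 1712. The 6 measured catalytic core genes split evenly around control, with a median of 0.02. The lowest accessory gene was Ndufa9, at 933 in control and 720 in NK1.1− KO cells.

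Complex II is both an enzyme of the citric acid cycle and an entry to the chain. Sdha, its flavoprotein that oxidizes succinate, read 4424 in control and 3157 in NK1.1− KO cells (-0.49 on the log2 scale), with all 3 measured probe sets below control. The membrane anchors Sdhc and Sdhd read 274 and 292 in control and 197 and 253 in NK1.1− KO cells, while the iron-sulfur subunit Sdhb read 607 and 699. None of the 4 genes reached 2-fold.

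Complex III genes lay between -0.36 and 0.46. The small subunits Uqcr10 (23.7 in control, 32.6 in NK1.1− KO cells) and Uqcr11 (209.6 and 281) were the highest against control. Uqcrfs1, the Rieske iron-sulfur protein, read 1402 and 1826. Lowest were Uqcrh, the hinge protein that aids docking of cytochrome c, at 1982 and 1548, and the core protein gene Uqcrc1, at 229.6 and 189. Its partner Uqcrc2 read 5916 and 5741.

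In complex IV, Cox8a read 23.1 in control and 42.5 in NK1.1− KO cells, close to the level and by 1 measured probe set. Cox6b1, which lies on the side where cytochrome c docks, read 7249 and 12476 (1.72-fold higher), and its other probe set gave 0.72 on the log2 scale. Cox5b read 6039 in control and 10008 in NK1.1− KO cells, with 0.12 to 0.73 over its 5 measured probe sets, and Cox5a 2656 and 4083, with 0.62 to 0.73 over 3. Cox6a1 read 4550 and 6320, Cox7a2 2222 and 3005, and Cox4i1, a subunit known for binding nucleotides, 3123 and 3508. Cox7c was nearest to control, at 282 and 305. Cox7a2l, a factor that joins complexes III and IV into supercomplexes, was the 1 gene of the family below control, at 5340 and 4564.

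In complex V, Atp5k, subunit e of the membrane part, read 555 in control and 1302 in NK1.1− KO cells, 2.35-fold higher and the only member past 2-fold. The other 2 probe sets of Atp5k gave 0.14 and 0.17 on the log2 scale, so the call rests on 1 probe set and is lost when all probe sets are averaged (0.51). Atp5h, subunit d of the stator, read 7165 and 10370, and Atp5l, subunit g, 59.6 and 83.9. The catalytic β subunit gene Atp5b was the lowest, at 3403 in control and 2250 in NK1.1− KO cells (1.51-fold lower), followed by the γ subunit gene Atp5c1 (5108 and 4576). Atp5a1, the α subunit, read 9426 and 9600. The c subunit, which forms the rotating ring, is encoded by 3 genes for the same mature protein, and each was within 0.07 of control on the log2 scale: Atp5g1 read 68.5 and 71.7, Atp5g2 187 and 183, and Atp5g3 9744 in both groups. At a threshold of 1.5-fold, 9 members were higher (Atp5k, Ndufb7, Cox8a, Cox6b1, Ndufb8, Cox5b, Ndufb9, Ndufs8 and Cox5a) and 1, Atp5b, was lower, against 16.3% of all genes higher and 15.1% lower at that threshold.

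**Figure D2:**
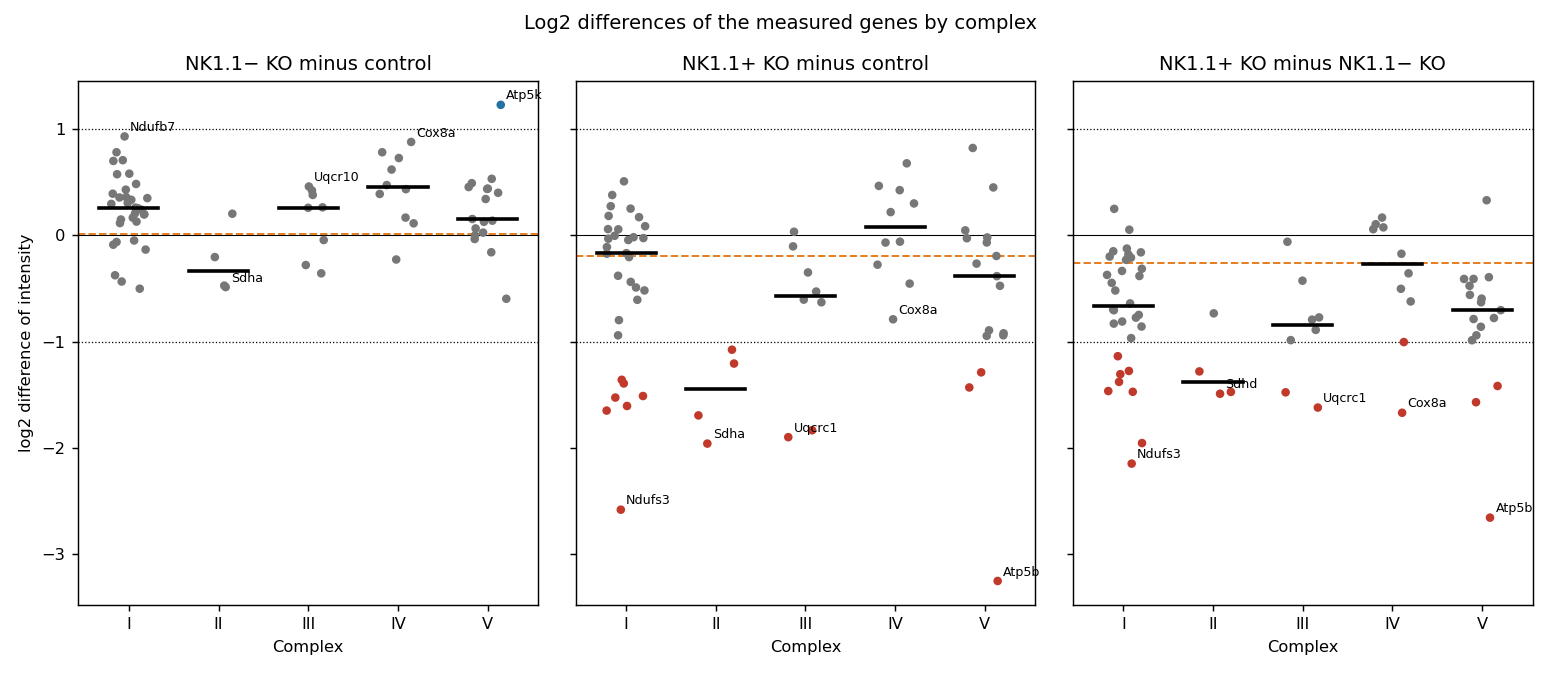
Log2 difference of each measured gene by complex for the 3 comparisons. Points are genes, black bars the medians per complex, dotted lines 2-fold, the orange dashed line the median over all measured genes, and the gene with the largest difference of each complex is named. Complex II lies at a median of -0.34, -1.45 and -1.38 from left to right.

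Receptor-deficient NK1.1+ cells were set against control cells to ask what sets this fraction of the mutants apart. There was no array of NK1.1+ control cells, so genotype and the NK1.1 sort cannot be told apart in this comparison. Of 71 measured members 16 were at least 2-fold lower (22.5%) and 0 higher. Over all 10339 measured genes 23.3% were lower and 9.90% higher. By brightest probe sets the share of lower members was therefore near that of any genes on this array. The median log2 difference was -0.28 for the members and -0.19 for all genes. When the arrays were scaled to one median, all genes shifted by about the same amount and these medians became 0.17 and 0.18, with 10 members lower and 2 higher, against 13.9% of all genes lower and 16.1% higher. A direction for the list as a whole is therefore not given by these arrays, and the differences below are given beside the median of all genes. At a threshold of 1.5-fold 26 members were lower and 2, Atp5l and Cox5a, higher, against 35.6% and 17.1% of all genes.

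Within that background the genes of the family spread widely, from -3.25 for Atp5b to 0.82 for Atp5l. All 4 genes of complex II were at least 2-fold lower, as were 7 of 32 of complex I, 2 of 8 of complex III, 3 of 17 of complex V and 0 of 10 of complex IV. Ndufa4 is 1 of the 7, so the 0 of complex IV rests on assignment by symbol. The medians were -1.45 for complex II, -0.57 for III, -0.38 for V, -0.17 for I and 0.08 for IV. After scaling to one median they were -0.12 for complex III, 0.06 for V, 0.28 for I and 0.53 for IV, with complex II again the lowest, so the sign of complexes I and V depends on the scaling. Scaling shifts all complexes alike and cannot change their order. With plain probe sets alone, described below, the order did change: the medians were -1.69 for complex II, -0.95 for I, -0.67 for III, -0.37 for V and -0.12 for IV.

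In complex II, Sdha read 4424 in control, 3157 in NK1.1− KO and 1137 in NK1.1+ KO cells, 3.89-fold below control. Sdhd read 292, 253 and 90.05 in the same order (3.24-fold lower), Sdhc 274, 197 and 119 (2.31-fold lower) and Sdhb 607, 699 and 288 (2.11-fold lower). The NK1.1+ KO array was the lowest of the 3 for each of them. Other probe sets gave smaller differences for 3 of these genes: -0.39 and -1.07 on the log2 scale for Sdha, -0.88 for Sdhc and 0.50 for Sdhd. Averaged over its probe sets, both of them measured, Sdhd (-0.60) was under 2-fold, while Sdha (-1.14 over its 3 measured probe sets) was not. Sdha was also under 2-fold when its unmeasured probe set was averaged in as no difference. After scaling to one median Sdhb (-0.63) and Sdhc (-0.76) were under 2-fold.

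In complex I, genes of the electron path were among the lowest. Ndufs3 read 472 in control, 349 in NK1.1− KO and 78.8 in NK1.1+ KO cells, 5.99-fold below control. Ndufv1 read 1355, 1275 and 515, and its 3 probe sets all lay at least 2-fold below control (-2.88 to -1.27). Ndufs1 read 816, 576 and 318 (2.57-fold lower). The other 3 catalytic genes were under 2-fold: Ndufv2 read 1150, 1715 and 1197, Ndufs8 848, 1379 and 846, and Ndufs7 1564, 1712 and 2036. Accessory genes at least 2-fold lower were Ndufs5 (56.3, 69.6 and 17.96), Ndufs4 (713, 650 and 234), whose product is needed for a stable NADH-oxidizing module, Ndufa9 (933, 720 and 327) and Ndufa4 (368, 352 and 128), whose protein is now placed in complex IV. Ndufs4 differed between probe sets, from -1.61 to 0.74. None of the 9 measured Ndufb genes was lower by its brightest probe set, and Ndufb9 was the highest of complex I, at 800.1 in control and 1139 in NK1.1+ KO cells. Another probe set of Ndufb9 gave -1.13.

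The remaining complex I genes, all accessory, were under 2-fold in this comparison and are given here as control, NK1.1− KO and NK1.1+ KO values. Below control in NK1.1+ KO cells by more than the median of all genes lay Ndufa8 (342, 431 and 178), Ndufc1 (755, 1130 and 435), Ndufb10 (322, 413 and 211), Ndufa3 (4286, 5118 and 2993), Ndufa10 (678, 752 and 483), Ndufa13 (3057, 4014 and 2257), Ndufb2 (259, 349 and 199) and Ndufa12 (618, 732 and 537). Between that median and control lay Ndufa2 (2168, 2434 and 1930), Ndufb3 (898, 869 and 797), Ndufb11 (4066, 4876 and 3768), Ndufa6 (294, 319 and 286), Ndufc2 (3680, 4224 and 3602), Ndufa5 (901, 1107 and 890.3) and Ndufa1 (7417, 9501 and 7290). Above control were Ndufa7 (145, 168 and 152), Ndufb8 (652, 1123 and 693), Ndufb5 (1707, 2177 and 1923), Ndufb7 (1189, 2270 and 1351), Ndufv3 (664, 762 and 791) and Ndufb6 (1024, 1432 and 1239). In most of them the NK1.1− KO array read highest, and NK1.1+ KO cells were nearer to control than to NK1.1− KO cells.

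In complex III, Uqcrc1 read 229.6 in control, 189 in NK1.1− KO and 61.5 in NK1.1+ KO cells (3.73-fold below control), and Uqcrh 1982, 1548 and 556 (3.57-fold). Both probe sets of Uqcrh were at least 2-fold lower. Uqcrfs1 read 1402, 1826 and 922, and Uqcrb, which helps form the ubiquinone site, 12451, 14956 and 8632. Nearest to control were Uqcr10, at 23.7, 32.6 and 24.3, and Uqcrc2, at 5916, 5741 and 5508, although a second Uqcrc2 probe set gave -1.43. In complex III the small subunits Uqcrq (226, 271 and 146) and Uqcr11 (209.6, 281 and 165) lay below control in NK1.1+ KO cells.

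The 10 measured Cox genes kept within 2-fold of control in NK1.1+ KO cells by their brightest probe sets. Ndufa4, counted under complex I, did not (2.88-fold lower). Cox5a read 2656 in control, 4083 in NK1.1− KO and 4253 in NK1.1+ KO cells, Cox6c 1347, 1767 and 1862, and Cox6b1 7249, 12476 and 9741. Cox6a1 read 4550, 6320 and 5607, and Cox7c 282, 305 and 328. Other probe sets gave log2 differences against control of 0.63 and -0.30 (Cox5a), -0.40 (Cox6c), 0.10 (Cox6b1), 0.54 (Cox6a1) and -0.22 (Cox7c). Below control were Cox8a (23.1, 42.5 and 13.4), Cox4i1 (3123, 3508 and 2280) and Cox5b (6039, 10008 and 4989). Cox7a2 (2222, 3005 and 2121) and Cox7a2l (5340, 4564 and 5127) differed from control by at most 0.07. The 10 genes split evenly around control.

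In complex V, Atp5b read 3403 in control, 2250 in NK1.1− KO and 357 in NK1.1+ KO cells, 9.54-fold below control and the largest difference of any member. It has 1 probe set. Atp5o, which joins the catalytic head to the stator, read 578, 637 and 214 (2.70-fold lower), and Atp5e, subunit ε of the central stalk, 701, 766 and 287 (2.44-fold lower). Another probe set of Atp5o gave -0.58 against control on the log2 scale. The c ring genes stayed just inside 2-fold: Atp5g1 read 68.5, 71.7 and 36.2, Atp5g2 187, 183 and 100.8, and Atp5g3 9744, 9744 and 5077. Atp5a1, which forms the catalytic head together with Atp5b, read 9426, 9600 and 7226 by its brightest probe set and 4437, 3454 and 857 by another, a log2 difference of -0.38 and of -2.37 against control. Highest against control were Atp5l (59.6, 83.9 and 106) and Atp5k (555, 1302 and 759).

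The other complex V genes belong to the stator, the membrane part and the stalk. Atp5c1, subunit γ of the stalk, read 5108, 4576 and 2651, just inside 2-fold in NK1.1+ KO cells, and Atp5d, subunit δ, 1099, 1452 and 961. Of the stator, Atp5h read 7165, 10370 and 7034, Atp5j 1294, 1440 and 931 and Atp5pb 2319, 3147 and 2396. The small membrane subunit genes Atp5j2 (2223, 3048 and 2193), Atp5md (1418, 1799 and 1355) and Atp5mpl (298, 404 and 248) also read highest in NK1.1− KO cells, as these stator genes did.

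How low a gene read on the NK1.1+ KO array went with the kind of probe set that read it. Plain probe sets are designed to match 1 transcript, while those with a suffix in their name (_s_at, _x_at or _a_at) match several transcripts of a gene or a family. Of 21 measured members represented by a plain probe set 9 were at least 2-fold lower than control, with a median of -0.94; of 50 represented by a suffixed one 7 were, with a median of -0.09. Over all genes represented by a plain or a suffixed probe set, 23.6% and 22.5% were at least 2-fold lower. Their medians were closer, -0.20 and -0.18. Among the 34 members read by both kinds, the plain probe sets gave the lower mean difference in 24, with medians of -0.69 and -0.02. Over all genes read by both kinds, the plain mean was the lower in 1277 of 2149, with medians of -0.38 and -0.22. The other 10 members ran the other way, among them Atp5c1, whose plain probe set gave 0.03 and whose suffixed one gave -0.95. Atp5pb read -2.08 by its plain and 0.05 by its suffixed probe set, and Ndufb11 -1.72 against -0.15 and -0.11. With plain probe sets alone, 17 of 52 measured members were at least 2-fold lower, against 25.1% of all genes. The members' median was then -0.72 against -0.25 over all genes, and complex I lay below complexes III and V.

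**Figure D3:**
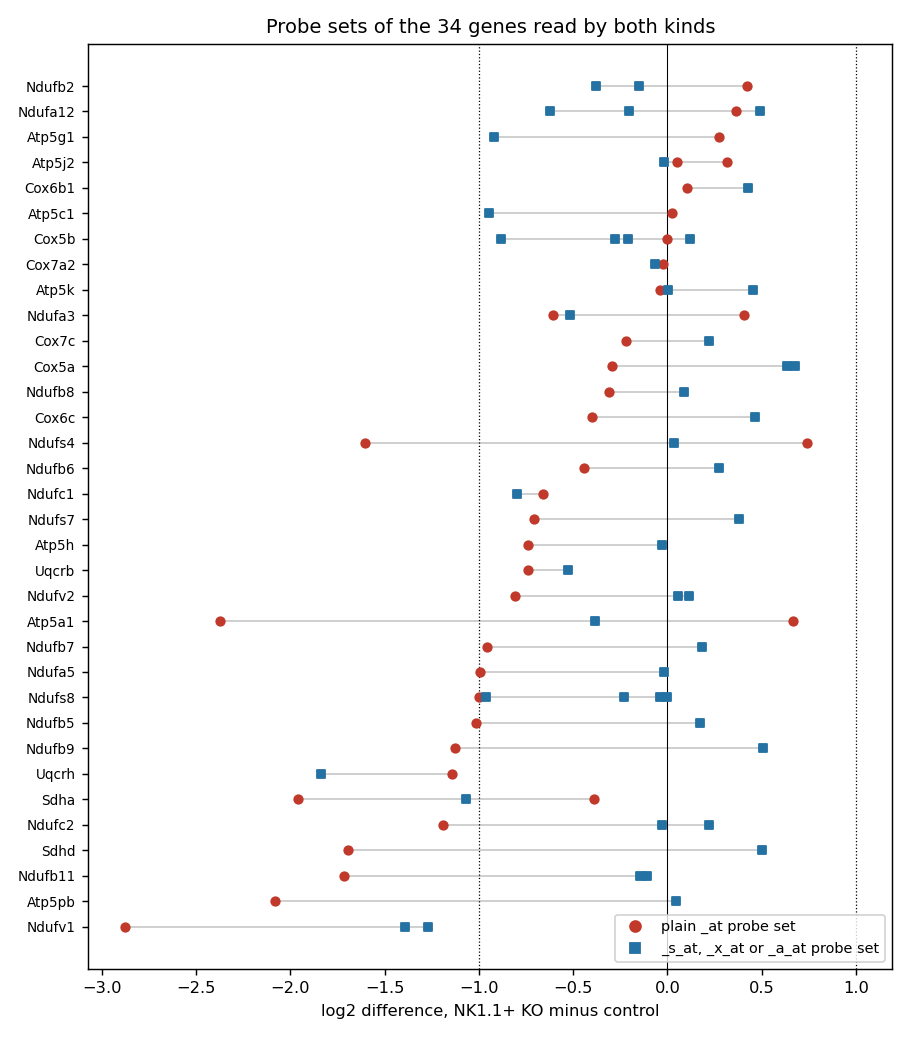
Log2 difference between NK1.1+ KO and control cells for each measured probe set of the 34 genes read by both kinds, with plain probe sets as red circles and suffixed ones as blue squares, and 2-fold dotted. Genes are ordered by the mean of their plain probe sets, from Ndufv1 upward. In 24 of 34 genes that mean lies below the suffixed one, against 1277 of 2149 over all genes.

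Of the 16 members called lower, 9 had 1 measured probe set and 7 had several. In 2 of these 7, Ndufv1 and Uqcrh, every measured probe set was at least 2-fold lower, and in 5 of 7 every one was below control. Conversely, 8 members under 2-fold by their brightest probe set had another at least 2-fold lower: Ndufb5, Ndufb9, Ndufb11, Ndufc2, Uqcrc2, Atp5a1, Atp5d and Atp5pb. The pooled SD of the log2 difference between probe sets of one member was 0.68 in this comparison and 0.28 between NK1.1− KO and control cells. Over all genes it was larger, 0.89 and 0.46. The part of the control ratios, of the myeloid and Jchain transcripts and of the probe set kind in these differences was not tested.

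The KO fractions were set against each other to ask what distinguishes NK1.1+ from NK1.1− cells of the same mutant mice, and each array also stands in a comparison above. NK1.1+ cells were at least 2-fold lower for 18 of 71 members (25.4%) and higher for 0, against 21.7% and 6.50% of all 10328 measured genes. Of the 71, 64 lay below, as did 6469 of the 10328 genes, and the median was -0.70 against -0.26 over all genes. With arrays scaled to one median, 8 members were lower and 0 higher, against 10.4% of all genes lower and 12.6% higher. Under that scaling 27 of the 71 members lay above NK1.1− KO cells, and the medians were -0.23 for members and 0.15 for all genes. The distance between the members and all genes was -0.37 under that scaling and -0.44 without it. At 1.5-fold 41 members were lower and 0 higher, against 36.3% and 12.8% of all genes.

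The largest differences were those of Atp5b (6.31-fold lower), Ndufs3 (4.44-fold) and Ndufs5 (3.88-fold), followed by Cox8a (3.18-fold). Also at least 2-fold lower were Uqcrc1, Atp5o, Sdhd, Uqcrh, Ndufs4, Sdha, Ndufa4, Atp5e, Ndufv1, Sdhb and Ndufa9, whose values are given above. The rest were genes that lay above control in NK1.1− KO cells. Cox8a read 42.5 in NK1.1− KO and 13.4 in NK1.1+ KO cells, Ndufc1 1130 and 435, Ndufa8 431 and 178, and Cox5b 10008 and 4989, the last at 2.01-fold just past the threshold. Just short of it were Uqcrfs1 and Atp5g1, both 1.98-fold lower. The few members higher in NK1.1+ cells were led by Atp5l, at 83.9 and 106, and Ndufs7, at 1712 and 2036, with Cox7a2l (4564 and 5127), Cox7c (305 and 328) and Ndufv3 (762 and 791) closer to equal. In complex III, Uqcrc2 came nearest to equal, at 5741 and 5508. Medians by complex were -1.38 for II, -0.84 for III, -0.70 for V, -0.67 for I and -0.26 for IV, and that of complex IV became 0.21 with arrays scaled to one median.

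Genes that build and feed the chain were read from 12 lists of assembly factors, electron carriers, citric acid cycle enzymes, carriers, import and ribosomal proteins, oxidant defence and regulators, 197 measured genes in all. In NK1.1− KO against control cells 2 of them were at least 2-fold higher and 5 lower, with a median of 0.07, against 8.14% of all genes higher and 5.58% lower. Higher were Etfb, which hands electrons from fatty acid oxidation to the chain (164 in control, 386 in NK1.1− KO cells), and Coq3, an enzyme of ubiquinone synthesis (53.1 and 114). Lower were Myc (120 and 45.9), Pprc1 (200.02 and 89.7), a PGC-1-related coactivator, the import channel gene Tomm40 (39.9 and 15.4), the mitochondrial ribosomal gene Mrps27 (29.4 and 14.4) and, as a lower bound, Pdhx of the pyruvate dehydrogenase complex (27.7 in control, below the level in NK1.1− KO cells).

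Of 16 regulators, Nrf1, whose motif is described above, read 135 in control, 224 in NK1.1− KO and 30.4 in NK1.1+ KO cells, and Gabpa 873, 867 and 743. Esrra, an estrogen-related receptor, read 70.9, 101.1 and 115, Yy1 3955, 3948 and 3720, and Tfam, which packs and transcribes mitochondrial DNA, 212, 218 and 153. Ppargc1a, the best known coactivator of mitochondrial biogenesis, was measured in NK1.1+ KO cells only, at 12.9, near the level. Ppargc1b read 59.6, 56.4 and 55.7, Polrmt 44.1, 84.9 and 33.3, and Myc 120, 45.9 and 13.9. Thus Nrf1, Myc and Pprc1 (200.02, 89.7 and 63.8) were the 3 regulators at least 2-fold below control in NK1.1+ KO cells. The others were Gabpb1 (58.1, 89.5 and 45.5), Polg (151, 132 and 113), Ppard (14.3, 18.7 and 19.4), Tfb1m (83.99, 104 and 62.01), Tfb2m (258, 186 and 141) and Twnk (43.2, 34.4 and 22.97), all within 2-fold of control on both KO arrays.

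In NK1.1+ KO against control cells 71 of the 197 genes were at least 2-fold lower and 1, Mrps36, was higher (87.5 in control, 202 in NK1.1+ KO cells), with a median of -0.65, against 23.3% of all genes lower and 9.90% higher. Scaled to one median, 45 were lower and 6 higher, against 13.9% and 16.1% of all genes. Complex I assembly factors were lower for 7 of 14 (median -0.88), led by Nubpl (71.5 and 13.5) and Ndufaf1 (144 and 31.2). Electron carriers and ubiquinone genes were lower for 9 of 18 (median -0.87), led by Coq7 (at least 8.01-fold, 82.7 in control). Cytochrome c itself, Cycs, read 2052 in control, 2141 in NK1.1− KO and 1255 in NK1.1+ KO cells. Citric acid cycle genes were lower for 7 of 17 (median -0.86), led by Idh2 (186 and 33.1) and Idh3a (776 and 179), while citrate synthase Cs read 3891 in control, 6195 in NK1.1− KO and 3530 in NK1.1+ KO cells. Mitochondrial ribosomal proteins were lower for 29 of 71 (median -0.68), led by Mrps5 (83.9 and 11.9) and Mrps7 (136 and 21.4). Of 17 import genes 6 were lower (median -0.53), with Tomm40 and Timm13 (202 and 52.7) leading. Complex IV assembly factors were lower for 2 of 16 (median -0.15): Lrpprc, which stabilizes mitochondrial messenger RNA (205 and 34.8), and Coa7 (41.5 and 12.5). In the short lists, complex II factors were lower for 1 of 4, complex III factors for 2 of 5 and complex V factors for 1 of 4. Carriers and pores were lower for 2 of 6, Slc25a5, which exchanges ATP for ADP (6015 and 2261), and Vdac2 (1861 and 675), and oxidant defence genes for 2 of 9, Prdx3 (520.0 and 197) and Txnrd2 (46.7 and 13.9).

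Other large protein complexes gave a frame for these shares. In NK1.1+ KO against control cells 21 of 37 proteasome subunits were at least 2-fold lower and 1 higher (median -1.45), and 19 of 45 cytosolic ribosomal proteins were lower and 1 higher (median -0.84). The respiratory genes, with 16 of 71 lower and a median of -0.28, lay nearer to control than either. In NK1.1− KO against control cells the medians were 0.14 for proteasome subunits, -0.27 for cytosolic ribosomal proteins and 0.15 for mitochondrial ribosomal proteins, with 0, 1 and 1 genes lower and 0 higher in each. None of these differences between lists was tested.

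**Figure D4:**
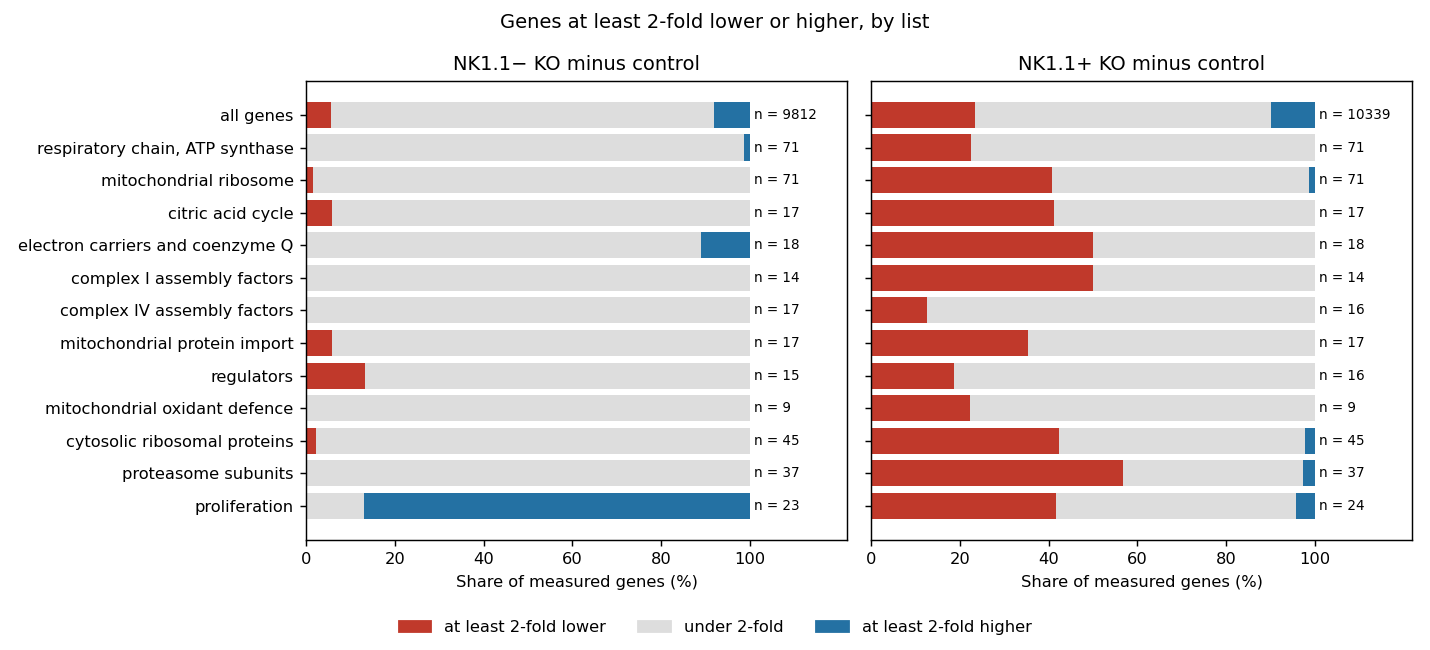
Share of measured genes at least 2-fold lower (red), under 2-fold (grey) and at least 2-fold higher (blue) than control, by list, for NK1.1− KO (left) and NK1.1+ KO cells (right), with the number measured at the right of each bar. The respiratory genes are almost all grey at left, and at right their red share of 22.5% is close to the 23.3% of all genes.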

How the data were processed

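Values were those of the authors' deposited series table, probe set intensity on a linear scale for 3 arrays, ranging from 2.60 to 55468 over 45037 probe sets after control probe sets were left out. GCRMA 1.1.3, a method that adjusts background by probe sequence, normalizes and summarizes probes, is named in the submitters' processing notes, without settings. GEO's annotation gave 1 symbol to 34945 probe sets, several to 932 and none to 9160, and only the first were named. Values under the level of 10.3 were raised to it before log2 was taken. With 1 array per group there was no test, and precision is limited by this number. The naming rule took, per comparison, all members past 2-fold, the extremes of each complex, the catalytic core and paired isoforms, up to 3 genes of each related list by size of difference, and all measured regulators. The other measured members and Cycs were named after their values were seen. Members and lists were chosen with earlier results of these data known. Motifs were searched as exact letters on both strands of RefSeq promoters (GRCm38.p6, names matched by Entrez identifier). Python 3.11.15, NumPy 2.4.6 and pandas 2.3.3 were used. The alternatives were a higher level, no level, an offset, 2 scalings, the mean of all probe sets, plain probe sets alone and a threshold of 1.5-fold. The mean over measured probe sets was added after seeing the data.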

Additional observations from a re-analysis of the deposited data

How the results depend on the processing

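No paired analysis was possible because each group had 1 array, and for the same reason no array could be left out in turn. The limits are the single arrays, the control cells whose sort the labels leave unsettled, the unequal control ratios and the disagreement of probe sets within a gene. Against control, NK1.1− KO cells kept a members' median of 0.20 to 0.26 under the 7 other settings below that keep the 2-fold threshold, and of 0.28 with the mean of measured probe sets. At 1.5-fold, 9 members were higher and 1 lower in NK1.1− KO cells, against 16.3% and 15.1% of all genes. In NK1.1+ KO cells against control 2 were higher and 26 lower, beside 17.1% and 35.6% of all genes. In NK1.1+ against NK1.1− KO cells 41 were lower, beside 36.3% of all genes. Scaling the arrays to one median shifted the median of all genes from -0.19 to 0.18 for NK1.1+ KO against control. It gave a members' median of 0.17 and complex medians of 0.28 (I) and 0.063 (V). There 2 members were higher and 10 lower, and 6 related genes higher and 45 lower, against 16.1% and 13.9% of all genes. Against NK1.1− KO cells this scaling gave 8 members lower and a complex IV median of 0.21. It gave 4 related genes higher and 39 lower, against 12.6% and 10.4% of all genes. Quantile normalization gave 1 member and 2 related genes higher in NK1.1+ KO cells than in control, against 12.7% of all genes. The mean of all probe sets gave 0 members and 1 related gene higher in NK1.1− KO cells than in control, against 5.24% of all genes. It gave a complex II median of -0.75 between the KO fractions, and it counts probe sets under the level as no difference. The mean of measured probe sets, an alternative chosen after seeing the data, gave the same counts and complex II median, against 6.90% of all genes higher. Plain probe sets alone gave 0 members higher and 3 related genes lower in NK1.1− KO cells, against 7.70% and 6.22% of all genes. In NK1.1+ KO cells against control they gave complex medians of -0.95 (I) and -0.12 (IV). Raising the level to 54.0, the 75th percentile over the whole table, which tests fewer genes, gave 2 related genes lower in NK1.1− KO cells. In NK1.1+ KO cells it gave 38 lower against control and 37 against NK1.1− KO cells. Over all genes 4.38%, 21.0% and 18.5% were lower at this level, in the same order. An offset of 32, which draws low values together, gave 1 related gene higher and 0 lower in NK1.1− KO cells. Over all genes these shares were 4.82% and 2.43%. In NK1.1+ KO cells against control 0 were higher and 42 lower, beside 5.66% and 14.4% of all genes. Against NK1.1− KO cells 38 were lower, beside 11.6% of all genes. Values without a level gave 2 related genes higher in NK1.1+ KO cells than in control and 1 higher than in NK1.1− KO cells. Over all genes 11.7% and 8.15% were higher. Other causes of these changes were not tested.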

Other observations

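Probe sets that the annotation shares between a subunit gene and a copy of it were left out of the members and read as follows. One shared by Ndufs5 and its pseudogene read 161 in control, 226 in NK1.1− KO and 83.3 in NK1.1+ KO cells. One shared by Ndufs6 and Ndufs6b, an accessory subunit of complex I, read 742, 838 and 598 in the same order, and one shared by Ndufa11 and Ndufa11b read 64.1, 92.5 and 47.8. In each of these the NK1.1− KO array was the highest and the NK1.1+ KO array the lowest.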
